A study of Mus musculus with 5 samples.

Results

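The inter-alpha-trypsin inhibitor family was followed through its 5 heavy chain genes Itih1, Itih2, Itih3, Itih4 and Itih5 and through Ambp, the gene of the light chain bikunin. These 6 genes, out of 18193 genes with a probe set of their own, are read by 8 of 34945 probe sets that carry a single gene symbol. The genes were chosen from the family name, after Itih4 had been seen among the largest differences of the same comparison. Their differences between the groups are therefore given as a description, with no test.

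Expression was measured in mouse esophagus on 5 Affymetrix Mouse Genome 430 2.0 arrays, 3 from mice fed doxycycline (Dox) and 2 from mice on a diet without it (NoDox). All 5 arrays come from FVB/N mice of 3 to 4 months that carry CC10-rtta and teton-IL-13, a pair of transgenes in which doxycycline lets the transactivator rtTA switch on IL-13. The CC10 promoter that drives rtTA is known for its activity in club cells of the airway. Mice without the transgenes on the doxycycline diet were not analysed here, so diet and IL-13 cannot be told apart. The labels do not say whether each array is a separate animal, so each p-value below covers array-to-array spread alone, which may be technical. RNA came from whole tissue, in which fewer cells of a type and less RNA per cell cannot be told apart.

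In plasma, the heavy chains of Itih1, Itih2 and Itih3 are known as partners of bikunin, a Kunitz-type protease inhibitor, to which they are joined through a chondroitin sulfate chain. The protein encoded by Tnfaip6 moves heavy chains from this complex onto hyaluronan, the long sugar polymer of the pericellular matrix, and so cross-links it. The heavy chain of Itih4 lacks the site that is joined to bikunin and is known as an acute phase protein of the liver that responds to IL-6. Itih5 is made in connective tissue, fat and skin rather than mainly in liver.

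The promoters of Itih4 and Itih5 are shown first, because these were the genes whose groups did not overlap. Each line gives the 250 bases before the gene start on the gene's own strand, from RefSeq on GRCm38.p6. Itih4 lies at chr14:30886226-30886475 on the plus strand and Itih5 at chr2:10153293-10153542 on the plus strand. Capitals mark a match to TTCNNNGAA, the letters of a STAT site with 3 free bases.
Itih4: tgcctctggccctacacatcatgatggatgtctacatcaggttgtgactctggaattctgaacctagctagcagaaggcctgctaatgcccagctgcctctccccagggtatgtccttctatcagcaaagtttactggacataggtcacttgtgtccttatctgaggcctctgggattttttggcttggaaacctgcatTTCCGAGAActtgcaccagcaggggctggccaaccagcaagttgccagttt
Itih5: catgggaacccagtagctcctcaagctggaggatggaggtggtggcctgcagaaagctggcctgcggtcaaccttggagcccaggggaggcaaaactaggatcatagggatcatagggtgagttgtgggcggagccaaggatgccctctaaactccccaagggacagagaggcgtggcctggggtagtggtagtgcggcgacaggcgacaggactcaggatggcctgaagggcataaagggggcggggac

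All 6 genes have a promoter window in RefSeq, and 3 motifs were searched on both strands of the 250 bases. The match TTCCGAGAA in the Itih4 promoter starts 51 bases before the gene start, and none of the other 5 windows held TTCNNNGAA. Of 32851 promoter windows in the same table, 7.02% held it. The form with 4 free bases, TTCNNNNGAA, was in none of the 6 windows and in 5.85% of all. The C/EBP letters TTGCNNAA were found on the other strand of the Itih2 window and in 9.56% of all windows. The gene's own strand reads TTGAGCAA there, from 33 bases before the gene start. No match overlapped another. A match describes the letters only.

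Each deposited value is a ratio whose denominator is the NoDox mean of that probe set, so it carries no level. Signals stored as whole steps leave a trace in such ratios, from which the step numbers were recovered for 7 of the 8 probe sets and for 88.8% of all probe sets. The size of a step in scanner units is not given in the sources used here. Step numbers are a signal before the scaling of the arrays, whose factors relative to NoDox 2 lay between 0.894 and 0.988. Probe sets bind with different strength, so step numbers serve here to compare arrays within a probe set and to show how dim a probe set is.

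Itih4 was high in all 3 Dox arrays. By its probe set 1431808_a_at the ratios were 48.2, 20.0 and 72.8 in Dox 1, 2 and 3 and 0.807 and 1.19 in NoDox 1 and 2. The groups did not overlap, and the lowest Dox value was 16.8-fold above the highest NoDox value. The log2 difference of Dox minus NoDox was 5.39 ± 0.61 (SE, n = 3 and 2 arrays), a 42.1-fold higher mean. Every SE given here is the moderated SE of the limma fit. It draws the variance of a gene's own arrays toward that of genes of like level, so it is not their spread alone. Dox 3 was highest and Dox 2 lowest, 3.64-fold apart.

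The recovered signal placed the change at the dim end of the array. Itih4 stood at 163 and 238 steps in the NoDox arrays and at 10307, 4473 and 15525 steps in the Dox arrays. In NoDox 4.49% of single-gene probe sets were dimmer than Itih4, and in Dox 62.2% were. With 923 steps, the lower quartile of the levels of single-gene probe sets, added to every recovered signal, the log2 difference was 3.05, and with 3429 steps, the median, it was 1.73. The fold therefore rests on how low the NoDox signal is taken to be, while the direction was the same in every alternative tried. Without any 1 array the log2 difference ranged from 4.98 to 5.92. Itih4 is read by a single probe set, of a type that matches several transcripts of a gene, so its isoforms were not separated.

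**Figure D1:**
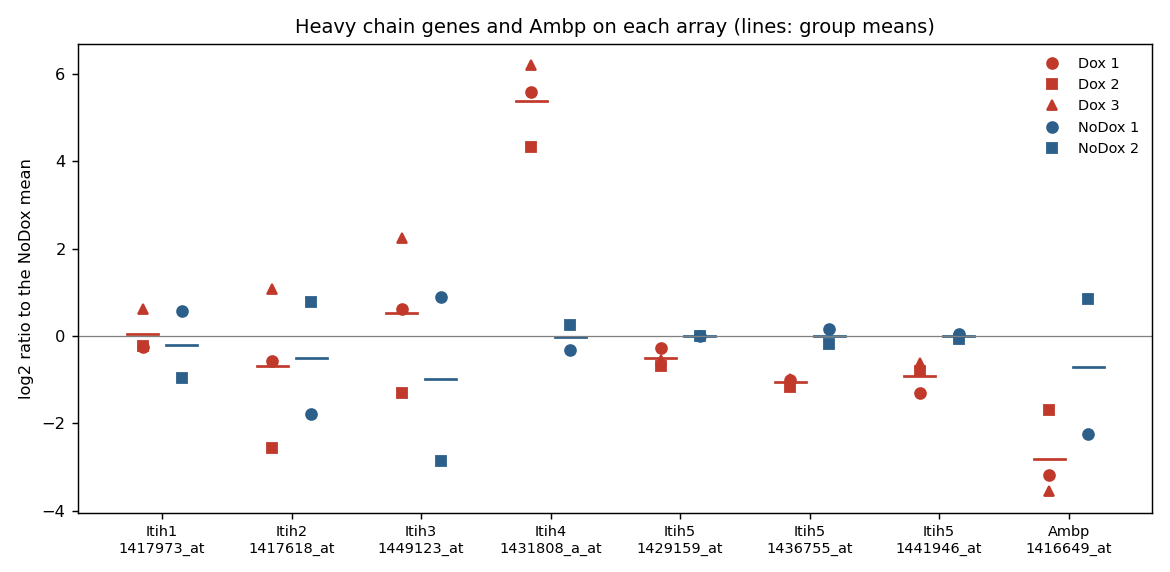
Log2 ratio to the NoDox mean (vertical axis) of the 8 probe sets of the 6 genes, with Dox arrays in red, NoDox arrays in blue, a symbol for each array number and a line at each group mean. Itih4 stands at 4.32 to 6.19 in Dox, the 3 Itih5 probe sets lie below both NoDox arrays, and the groups of Itih1, Itih2, Itih3 and Ambp overlap.

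Itih5 was lower in all 3 Dox arrays by each of its 3 probe sets. The probe set 1429159_at, the brightest and the one that stands for the gene, had ratios of 0.827, 0.621 and 0.687 in Dox and 1.01 and 0.992 in NoDox. Its log2 difference was -0.50 ± 0.15 (SE, n = 3 and 2 arrays), and its NoDox arrays were 1.02-fold apart. The groups did not overlap.

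The other probe sets of Itih5 gave larger differences. In 1436755_at the ratios were 0.499, 0.446 and 0.508 in Dox and 1.11 and 0.885 in NoDox, a log2 difference of -1.04 ± 0.28. In 1441946_at they were 0.405, 0.575 and 0.649 in Dox and 1.04 and 0.962 in NoDox, a log2 difference of -0.91 ± 0.25. Dox 1 was the highest Dox array in the first of the 3 probe sets and the lowest in the last, so the probe sets did not rank the Dox arrays alike. These are readings of the same 5 RNA samples and do not count as further replicates.

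Markers of fat and connective tissue, where Itih5 is made, were read in the same arrays. Of 12 adipocyte genes 0 rose and 0 fell past the threshold of limma's test (adjusted p under 0.05 over 18193 genes; 6 at unadjusted p under 0.05, where 3194 of all 18193 genes were), 7 had all Dox arrays below both NoDox arrays, where 22.3% of all genes did, and their median log2 difference was -0.36 against -0.08 for all genes. The summed signal of the 5 adipocyte genes with a recovered level was 0.548 to 0.844 of the NoDox mean in Dox and 0.912 to 1.09 in NoDox. Among the brightest adipocyte genes, the lipid chaperone Fabp4 was at -0.25 and the lipid droplet gene Plin4 at -0.30. Of 12 fibroblast genes 0 passed the test in either direction (4 at unadjusted p under 0.05), 5 had all Dox arrays below both NoDox arrays, and the median was -0.14. The collagens Col3a1 and Col1a2 and the actin-binding Gsn were at -0.10, -0.00 and 0.07. None of these 3 had a recovered level, and they were picked by the same bound. The fibroblast list was not uniform. It ran from -0.75 for Mfap5 through -0.59 for Fbln1 and -0.51 for Col1a1 to 0.44 for Col6a1. The genes of that range were named with their values seen. The part of these cells in the Itih5 values was not tested.

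The heavy chains that pair with bikunin were dim and varied within groups. Itih1, by probe set 1417973_at, had ratios of 0.839, 0.851 and 1.54 in Dox and 1.49 and 0.511 in NoDox, with a log2 difference of 0.24 ± 0.76 (SE, n = 3 and 2 arrays). Its step numbers ran from 347 to 1118. The groups overlapped, since the NoDox arrays enclosed Dox 1 and Dox 2, and the difference was 1.02 without NoDox 1 and -0.53 without NoDox 2.

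Itih2, by probe set 1417618_at, had ratios of 0.667, 0.170 and 2.11 in Dox and 0.288 and 1.71 in NoDox, with a log2 difference of -0.18 ± 1.18. Its step numbers ran from 159 to 1885, with Dox 2 lowest and Dox 3 highest, so the Dox arrays enclosed both NoDox arrays. The difference was -1.46 without NoDox 1, 1.11 without NoDox 2 and 0.76 without Dox 2.

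Itih3, by probe set 1449123_at, had ratios of 1.53, 0.405 and 4.70 in Dox and 1.86 and 0.139 in NoDox, with a log2 difference of 1.49 ± 1.33. Its step numbers were 748, 206 and 2279 in Dox and 856 and 63 in NoDox. The mean was higher in Dox, but NoDox 1 lay above Dox 1 and Dox 2, the groups overlapped, and the sign was opposite (-0.38) without NoDox 2. The NoDox arrays were 13.4-fold apart, a wider range than in 99.3% of genes.

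Ambp, which encodes bikunin together with the lipocalin alpha-1-microglobulin, had, by probe set 1416649_at, ratios of 0.111, 0.308 and 0.0852 in Dox and 0.212 and 1.79 in NoDox. The lower mean in Dox (log2 difference -2.10 ± 1.25, SE) rested on NoDox 2, which stood at 943 steps against 48 to 182 on the other 4. NoDox 1 lay between the Dox arrays, and without NoDox 2 the difference was -0.57. With the smaller offset it was -0.46 and with the larger one -0.16. The Ambp arrays in NoDox were 8.45-fold apart, a wider range than in 98.1% of genes.

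**Figure D2:**
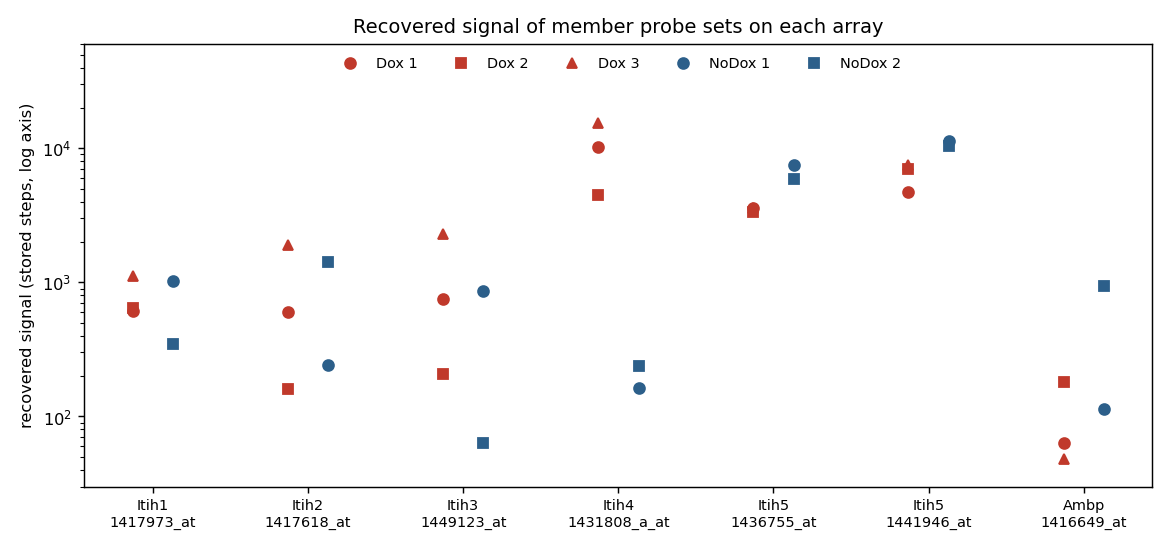
Recovered signal in stored steps (vertical log axis) of the 7 probe sets with a recovered level, by array, with Dox in red and NoDox in blue. Itih4 is the gene that moves from the dim range (163 and 238 steps in NoDox) to over 4000 steps in Dox, and Itih1, Itih2, Itih3 and Ambp scatter between 48 and 2279 steps in both groups.

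Across the family 1 of 6 genes had all Dox arrays above both NoDox arrays, where 13.6% of all genes did, and 1 had all Dox arrays below them, where 22.3% did. The family was chosen on this comparison, and nothing is read from these shares. The other 4 genes had groups that overlapped. Dox 3 was the highest of the 5 arrays for Itih1, Itih2, Itih3 and Itih4, while it was the lowest for Ambp.

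Markers of the liver, the main source of most of these proteins, held no gene past the threshold, and many of them were dim. Of all genes limma called 1.40% higher and 1.24% lower. Of 21 hepatocyte genes 0 rose and 0 fell in limma's test (3 at unadjusted p under 0.05), and their median log2 difference was -0.33 against -0.08 for all genes. The summed signal of the 20 with a recovered level was 0.640 to 0.729 of the NoDox mean in Dox and 0.711 and 1.29 in NoDox 1 and 2. Alb, the albumin gene, had ratios of 0.261, 0.170 and 0.237 in Dox and 0.409 and 1.59 in NoDox. The bright hepatocyte genes Cyp2e1 and Vtn were at -0.01 and 0.03. At the dim end Fgg, Fgb, Fga and Hpx had mean levels of 230, 270, 385 and 459 steps, under the lower quartile of 923. Their log2 differences were -0.93, -0.59, 0.33 and -2.68, and -0.15, -0.06, -0.05 and -0.42 with the larger offset. Differences of genes this dim thus depend on the offset. A liver origin of the Itih4 signal was not tested. NoDox 2, the array with the highest Ambp value, was thus also the highest for Alb and for the hepatocyte sum. No listed gene had a value of 0 on any array.

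Genes of other cell types were called in Dox. Across all genes limma called 1.40% higher in Dox and 1.24% lower, 254 and 226 of 18193. Of 12 genes of lung alveoli and airway 6 rose, the surfactant and alveolar genes Sftpa1, Sftpc, Sftpd, Napsa, Ager and Slc34a2 (1.91 to 2.99). The airway genes Scgb1a1, Scgb3a2 and Scgb3a1 did not pass, at 0.79, 0.38 and -0.05. Of the 12, the 6 with a recovered level had a summed signal of 2.03, 1.53 and 2.99 times the NoDox mean in Dox 1, 2 and 3. In NoDox it was 0.948 and 1.05. All 6 lung calls were lost without NoDox 1 and without NoDox 2 (adjusted p up to 0.221). Itih4 had the same order over the Dox arrays, Dox 3 above Dox 1 above Dox 2. Of 11 macrophage genes 5 rose, Cd68, Tyrobp, Adgre1, Lyz2 and Csf1r (0.80 to 1.54), all 11 had Dox arrays above both NoDox arrays, where 13.6% of all genes did, and the sum over the 4 with a recovered level was 1.86 to 2.31 times the NoDox mean. Of these calls, that of Cd68 was kept with any 1 array left out. Tyrobp was lost without NoDox 1. Adgre1, Csf1r and Lyz2 were lost without either NoDox array, Csf1r and Lyz2 without Dox 3, and Lyz2 without Dox 1 (adjusted p up to 0.331). The share of these cells in the Itih4 signal was not tested. Of 11 genes of squamous epithelium, the tissue's own lining, all were brighter than the recovery could resolve. The keratins Krt13 and Krt4 were at -0.20 and -0.03, Trp63 was at -0.34, and Krt6a, a keratin of stressed epithelium, was the 1 that rose (1.80 ± 0.13). The lowest was Tgm3 at -0.76 (adjusted p = 0.0505, limma). The median of the 11 was -0.07, and 6 were at unadjusted p under 0.05 in limma. All Dox arrays lay below both NoDox arrays in 5, where 22.3% of all genes did, and above them in 2. Of 16 skeletal muscle genes 4 fell, Myl2, Myh7, Myh4 and Tnnc1 (-5.96 to -2.96). The median of the 16 was -0.20, and Myh1, Myl1 and Tnnt3 were at -0.13, -0.07 and -0.24. None of the 16 had a recovered level. These 3 were picked by the lower bound on it, which favours small differences. Of 10 stomach, 7 mesothelial and 10 endothelial genes 0 passed limma's test (0, 0 and 3 at unadjusted p under 0.05), with medians of -0.02, 0.26 and 0.36.

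Hyaluronan genes, the partners of the heavy chains in the matrix, did not pass the test. Of all genes 1.40% were called higher and 1.24% lower. A count of 0 of 25 is near those shares, and nothing is read from it. The split of all calls, 254 higher to 226 lower as reported, was 314 to 143 after median centring of the arrays and 53 to 12 with quantile normalization. With no intensity trend limma called 6 and 0, and with the trend on the mean log2 ratio 0 and 0 (2384 at unadjusted p under 0.05, against 3194 as reported).

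Of 25 genes of hyaluronan synthesis, breakdown and binding 0 rose and 0 fell (6 at unadjusted p under 0.05 in limma). Their median log2 difference was -0.10 against -0.08 for all genes. In 6 all Dox arrays lay above both NoDox arrays and in 4 below, where 13.6% and 22.3% of all genes did. The synthase Has3 had ratios of 2.40, 2.30 and 3.14 in Dox and 1.21 and 0.788 in NoDox, a log2 difference of 1.40 ± 0.42 (adjusted p = 0.127, limma with Benjamini-Hochberg adjustment). Has3 was at 0.53 with the larger offset. The proteoglycan Vcan, or versican, had ratios of 0.852, 0.578 and 0.558 in Dox and 1.05 and 0.949 in NoDox, a log2 difference of -0.62 ± 0.21 (adjusted p = 0.166, limma). Both had groups that did not overlap. As the mean of its 8 probe sets Vcan was at 0.01.

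Further hyaluronan genes are named for their role, with their values seen. The heavy chain transferase Tnfaip6 had ratios of 2.03, 1.43 and 1.43 in Dox and 1.17 and 0.828 in NoDox, at 0.70 ± 0.24 (adjusted p = 0.171, limma). The synthases Has1 and Has2 were at 0.39 and 0.64. The receptor Cd44 was at 0.19 and the pentraxin Ptx3, which binds heavy chains, at 0.27. The lymphatic receptor Lyve1 was at -0.20 and the hyaluronidase Hyal2 at -0.13.

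Acute phase genes changed in part. Of 21 with a probe set of their own 3 rose and 0 fell, where 1.40% and 1.24% of all genes did. At unadjusted p under 0.05 in limma there were 7. The median log2 difference was -0.06 against -0.08 for all genes. The iron-binding Lcn2, which epithelium and neutrophils make, had ratios of 11.5, 8.30 and 29.5 in Dox and 1.11 and 0.888 in NoDox, a rise of 3.83 ± 0.46 (adjusted p = 0.00351, limma with Benjamini-Hochberg adjustment). The serum amyloid gene Saa3, the form made outside the liver, had ratios of 6.14, 4.11 and 24.2 in Dox and 0.657 and 1.34 in NoDox, a rise of 3.18 ± 0.65 (adjusted p = 0.0389, limma). The protease inhibitor Serpina3n had ratios of 2.45, 2.26 and 3.88 in Dox and 0.876 and 1.12 in NoDox, a rise of 1.49 ± 0.23 (adjusted p = 0.0141, limma). Without NoDox 1 and without NoDox 2 all 3 calls were lost, and that of Saa3 was lost without Dox 1 too (adjusted p up to 0.0911, 0.325 and 0.205 for Lcn2, Saa3 and Serpina3n).

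These 3 genes ranked the Dox arrays as Itih4 did, Dox 3 above Dox 1 above Dox 2. The same order held for 84 of the 254 genes higher in Dox (33.1%) and for 17.2% of all genes. The liver forms Saa1 and Saa2, named with their values seen, were at 0.08 ± 0.70 and -0.44 ± 0.62. Both were dim, with mean levels of 694 and 1182 steps. The bright gene Hp of the same list, named likewise, was at 0.98 ± 0.29 (adjusted p = 0.125, limma), and its groups did not overlap. Of the 21 listed genes 5 had all Dox arrays above both NoDox arrays and 4 had them below, where 13.6% and 22.3% of all genes did.

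Of 17 genes of IL-6 and STAT3 signalling 1 rose and 0 fell, where 1.40% and 1.24% of all genes did. Their median was 0.19, and 6 were at unadjusted p under 0.05 in limma. The rise was that of Socs3, the feedback inhibitor of the pathway, whose ratios were 1.82, 1.73 and 2.00 in Dox and 1 and 0.998 in NoDox (0.89 ± 0.13, adjusted p = 0.00946, limma). The call was lost without Dox 3, without NoDox 1 and without NoDox 2 (adjusted p up to 0.156). Il6 itself, chosen for naming with its values seen, had ratios of 7.95, 7.02 and 5.77 in Dox and 0.302 and 1.70 in NoDox, at 3.26 ± 0.88 (adjusted p = 0.0943, limma). It was dim, and with the larger offset its log2 difference was 0.39.

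Of 14 genes of Kunitz inhibitors other than Ambp 0 rose and 0 fell (4 at unadjusted p under 0.05), with a median of -0.12. The membrane-bound epithelial inhibitor Spint1 had ratios of 0.538, 0.891 and 0.614 in Dox and 0.982 and 1.02 in NoDox, at -0.59 ± 0.20 (adjusted p = 0.173, limma). Wfikkn1 was at -1.42 ± 0.56 (adjusted p = 0.231, limma), and at -0.39 with the larger offset. The others of these 4, Spint4 and Eppin, went the other way, at 2.29 ± 0.97 and 1.74 ± 0.77 (adjusted p = 0.264 and 0.284, limma). Both were dim, at 0.18 and 0.30 with the larger offset, and were named with their values seen.

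**Figure D3:**
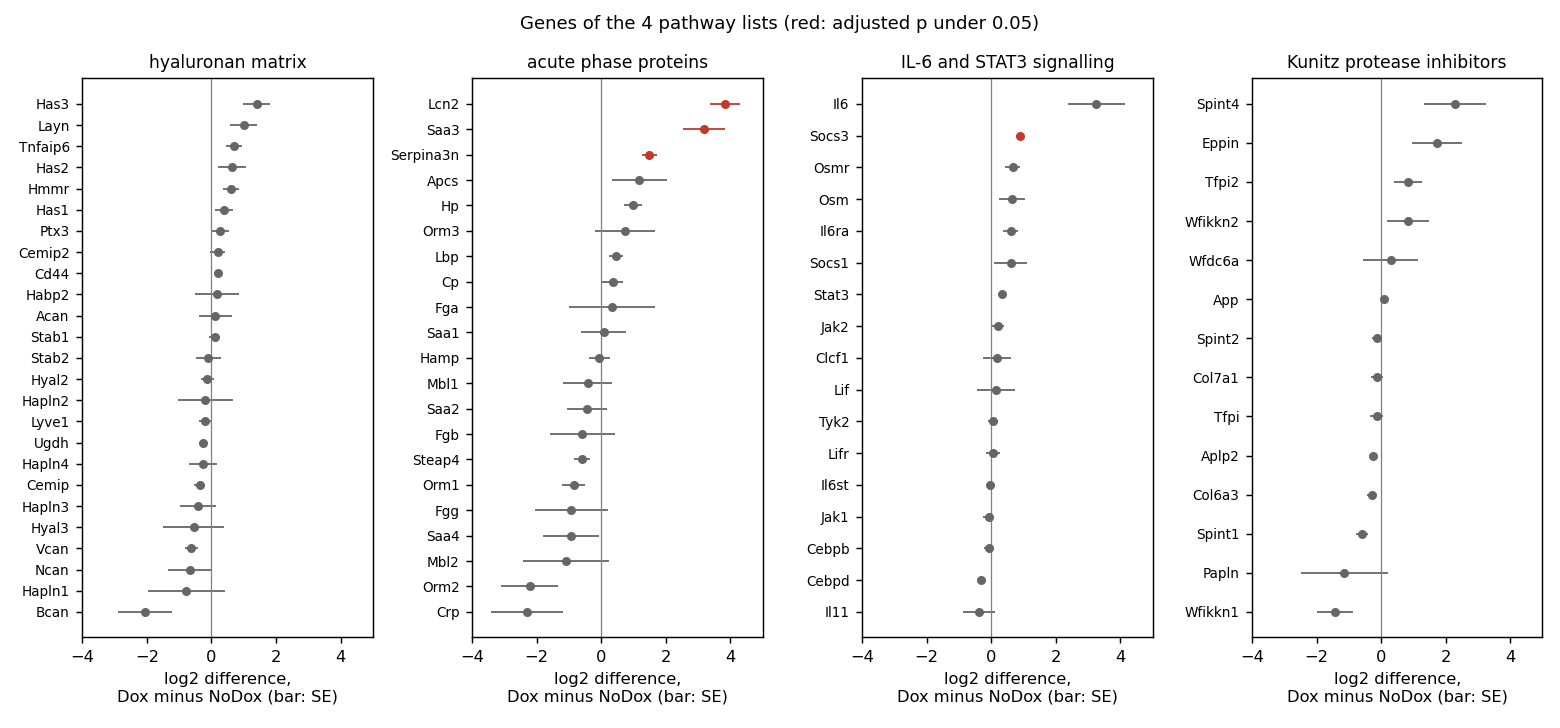
Log2 difference of Dox minus NoDox (horizontal axis, bar for the SE) for each gene of the 4 pathway lists, with genes past adjusted p under 0.05 in red. Lcn2, Saa3 and Serpina3n of the acute phase list and Socs3 of the signalling list are past the threshold, and no gene of the hyaluronan or Kunitz lists is.

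The genes whose values over the 5 arrays lay nearest those of Itih4, by Euclidean distance of log2 ratios, were the macrophage elastase Mmp12 (distance 1.02), the ribonuclease genes Ear3 (1.08) and Rnase2b (1.30), the chemokine receptor Ccr7 (1.42) and the chitinase-like Chil4 (1.43). Their log2 differences were 5.39, 5.14, 4.91, 4.73 and 5.54. The ratios were not centred for the distance, so genes with a difference of like size come out near by construction. Nothing is read from the likeness of these differences. Mmp12 had ratios of 32.8, 20.9 and 65.8 in Dox and 0.474 and 1.53 in NoDox. Ccr7 had ratios of 19.3, 13.9 and 66.1 in Dox and, like Itih4, a dim NoDox signal, and it was at 0.68 with the larger offset. Ear3 and Rnase2b share sequence with other ribonuclease genes and Chil4 with Chil3, so which member is read is uncertain.

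**Figure D4:**
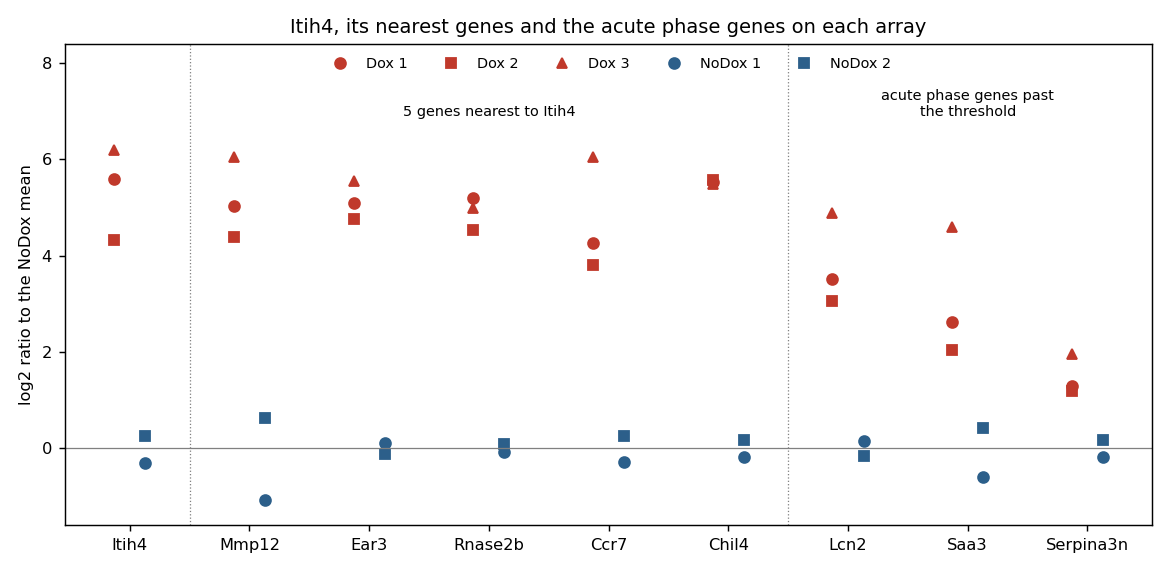
Log2 ratio to the NoDox mean (vertical axis) of Itih4, of the 5 genes nearest to it over the 5 arrays and of the 3 acute phase genes past the threshold, by array, with Dox in red and NoDox in blue. Dox 3 is above Dox 1 and Dox 2 in Itih4, Mmp12, Ear3, Ccr7, Lcn2, Saa3 and Serpina3n, and the Dox arrays of Chil4 lie together.

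Itih4, Itih3 and Itih1 lie side by side on chromosome 14, Itih2 and Itih5 side by side on chromosome 2, and Ambp on chromosome 4, in the order of the RefSeq gene table. The 5 protein-coding genes on each side of each place were read, 30 in all, of which 29 have a probe set of their own. Of the 9 read around the cluster of Itih4 limma called 0 (log2 differences from -0.60 for Mustn1 to 0.20 for Prkcd, median 0.00). Nek4, the next gene after Itih1, was at 0.01 ± 0.35. High values in all Dox arrays were read in Itih4, while its neighbours Itih3 and Itih1 had groups that overlapped. Of the 9 flanking genes 1 had all Dox arrays above both NoDox arrays, where 13.6% of all genes did. In 4 they lay below, where 22.3% did. Of all genes 1.40% were called higher and 1.24% lower. A count of 0 of 9 is near those shares, and nothing is read from it.

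Of the 10 genes around Itih2 and Itih5 limma called 0, with log2 differences from -0.53 (Prkcq) to 1.65 (Gata3, 0.26 with the larger offset). Of the 10 around Ambp 1 rose, the G protein regulator Rgs3, whose ratios were 1.62, 1.77 and 1.79 in Dox and 0.867 and 1.13 in NoDox (0.80 ± 0.17, adjusted p = 0.0478, limma). The log2 differences of the 10 ran from -2.22 (Orm2) to 2.12 (Kif12), with a median of -0.37. Kif12, a kinesin gene next to Ambp, had ratios of 1.96, 2.69 and 3.04 in Dox and 0.186 and 1.81 in NoDox (2.12 ± 0.86, adjusted p = 0.245, limma), and was at 0.48 with the larger offset. When single arrays were omitted, Rgs3 stayed past the threshold only without Dox 2 and missed it in the other 4 fits (adjusted p up to 0.392), as it did with both offsets. The neighbours Mustn1, Prkcd, Nek4, Prkcq, Gata3 and Kif12 and the genes below were named with their values seen. The orosomucoid genes Orm1, Orm2 and Orm3, acute phase genes of liver that lie near Ambp, were at -0.86, -2.22 and 0.73 and did not pass the test. With the larger offset they were at -0.55, -0.24 and 0.04. They share sequence, so the member is uncertain. Over all 29 flanking genes 9 were at unadjusted p under 0.05.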

How the data were processed

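Deposited values are each a ratio, which the authors made from MAS 5.0 signals and normalized in GeneSpring 7.3.1 per the labels. In 45099 of 45101 probe sets the 2 NoDox values sum to 2 within 0.0001, so the reference is the mean of the NoDox arrays. Whole step numbers up to 50000 were sought that give all 5 ratios within a relative tolerance of 3e-07, with a factor for each array and a limit of 0.01 expected chance solutions. Of 4000 probe sets with shuffled ratios 0.05% gave a solution. On 20000 generated probe sets 96.3% of the levels found were right, and the rest were whole fractions of the right one. Unresolved probe sets kept a lower bound, which is higher where the ratios vary less, so it does not rank them by brightness. Log2 ratios were fitted with limma 3.58.1 in R 4.3.3 (eBayes with a trend on the recovered level, two-sided, Benjamini-Hochberg over 18193 genes, threshold 0.05), with 3 residual and 6.09 prior degrees of freedom. Each gene was read through its probe set of highest recovered level or bound. Standard errors of the other Itih5 probe sets come from the same model over all single-gene probe sets. No offset or filter was applied. With 3 and 2 arrays, exact permutation gives no p under 0.1 and was not used. Precision is limited by how few arrays there are. The genes, lists and tests were chosen with earlier results of these data known. Named genes are the family, the 5 genes nearest Itih4 and the members past the threshold in each pathway list or else those of smallest p. Markers with a high recovered level or bound and flanking genes past the threshold were named too. Python 3.11.15 and matplotlib 3.10.9 were used.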

Additional observations from a re-analysis of the deposited data

How the results depend on the processing

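The direction of Itih4 and of all 3 Itih5 probe sets was the same in every alternative run. The log2 difference of Itih4 was 3.70 with quantile normalization, 3.05 with the smaller and 1.73 with the larger offset. That of Itih5 was -0.31 with quantile normalization and -0.82 as the mean of its probe sets. Its probe set 1436755_at gave -0.77 with quantile normalization, -0.87 and -0.60 with the offsets, and -1.21 to -0.87 with 1 array left out. Ambp gave -0.46 and -0.16 with the offsets and -3.64 to -0.57 with 1 array left out, and Itih1 -0.53 to 1.02. With 1 array left out Itih2 ranged from -1.46 to 1.11 and Itih3 from -0.38 to 3.37, both within their spread between arrays. The NoDox fits with 1 array left out assume that the lone array varies like the Dox arrays. The filter on low levels leaves out each family gene except Itih5.

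Genes higher in Dox numbered 53 with quantile normalization, 6 with no trend, 0 with the trend on the mean log2 ratio, and 41 to 381 with 1 array left out. Genes lower in Dox numbered 143 with median centring, 12 with quantile normalization, 396 with the level filter, 0 with no trend or the trend on the mean, and 7 to 509 with 1 array left out. Acute phase genes higher in Dox numbered 1 with quantile normalization, 0 with either change of trend and 0 to 3 with 1 array left out. The single IL-6 and STAT3 gene was lost (0) with quantile normalization and either change of trend, and numbered 0 to 2 with 1 array left out. Kunitz genes lower in Dox numbered 0 to 1 with 1 array left out. The flanking gene Rgs3 was lost (0) with quantile normalization, both offsets, the mean of probe sets and either change of trend, and was kept in a single one (0 to 1) when arrays were omitted in turn. Ratios of NoDox arrays to their own mean are narrow by construction, so quantile normalization narrows the Dox arrays. The cause of the other shifts was not tested.

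With the replicate block, in which arrays of the same number share a term, 500 genes were lower and 359 higher. In it 1 hyaluronan gene rose and 1 fell, 1 acute phase gene fell and 1 flanking gene fell. Dox 3 has a term of its own there, so the differences equal those without Dox 3 (4.98 for Itih4 in both). The block fit is therefore no separate estimate, and it leaves fewer residual degrees of freedom than the reported fit. Arrays share a number in 2 pairs only, and deviations of same-numbered arrays correlated at 0.0309 and 0.0515 across genes, so the numbers show no pairing.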
